A study of Mus musculus with 18 samples.

Results

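Scavenger receptors were examined as 7 genes, *Msr1*, *Marco*, *Cd36*, *Scarb1*, *Mrc1*, *Stab1* and *Olr1*, taken by their names from the 56748 genes of a count table. The RNA came from RAW 264.7 cells, an immortalised mouse macrophage line, so the values describe this line and not primary macrophages. There were 6 conditions with 3 biological replicates each, 18 libraries in all. Control cells received no treatment after plating, and TBHQ cells received 5 µM tert-butylhydroquinone, a phenolic food antioxidant, for 4 h. LPS cells were stimulated with lipopolysaccharide, a bacterial cell wall component, at 0.1 µg/mL, and PIC cells with poly I:C, a synthetic double-stranded RNA, at 20 µg/mL, both over 12 h. In LPS + TBHQ and PIC + TBHQ, the same stimulus followed the 4 h of TBHQ. TBHQ cells were collected at the end of those 4 h, before any stimulus. The methods state no collection time for the control, which the study elsewhere places with the stimulated cells. For TBHQ alone against the control, treatment and collection time therefore cannot be told apart. The study dissolved TBHQ in DMSO and describes no solvent control for the RNA libraries. The part of the solvent in any change with TBHQ was not tested. The libraries held 14423390 to 18851626 counts, and 3 counts, equal to 0.159 to 0.208 CPM (counts scaled by library total), were taken as the floor of detection, which covers counting error only.

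Scavenger receptors are membrane proteins that bind a wide range of polyanionic ligands, among them modified lipoproteins, bacterial surface molecules and dying cells, and carry them into the cell. They are grouped into classes by structure rather than by descent, and several of them take up oxidised low-density lipoprotein and so take part in foam cell formation. In macrophages they also serve as co-receptors of Toll-like receptors, which sense LPS and double-stranded RNA.

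The cells carried the RNA of macrophages. All 9 macrophage markers had counts, and their summed level was 5710 to 6700 FPKM (fragments scaled by gene length and the authors' library size) per library, with *Lyz2* the most abundant at a mean of 4020. *Mertk* was the exception, with a median of 0 counts and a highest value of 5. Since *Stab1*, *Mrc1* and *Cd36* are also known from endothelial cells, markers of those cells were read too. Of 8 endothelial markers, *Emcn*, *Tie1* and *Lyve1* were at the floor in every library. *Pecam1*, *Cdh5* and *Tek* had no more than 5, 7 and 8 counts. *Kdr* had 7 to 26 counts and was over the floor in every library. *Vwf* had 242 to 419 counts and made up most of the summed level of 1.16 to 1.77 FPKM. Its control mean was 1.46 FPKM, above the 0.906 FPKM of *Stab1*. The summed level per library was at most 0.122 FPKM for 6 fibroblast markers, 0.128 FPKM for 6 T cell markers, 0.354 FPKM for 5 B cell markers and 0.0861 FPKM for 4 hepatocyte markers. *Col1a2*, *Lum*, *Cd3e*, *Cd8a*, *Ttr* and *Tie1* were at 0 in all 18 libraries. The 5 dendritic cell markers summed to 0.337 to 1.5 FPKM, led by *Itgax* at 0.73. In bulk RNA of this kind, fewer cells expressing a gene and less RNA per cell cannot be told apart.

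**Figure D1:**
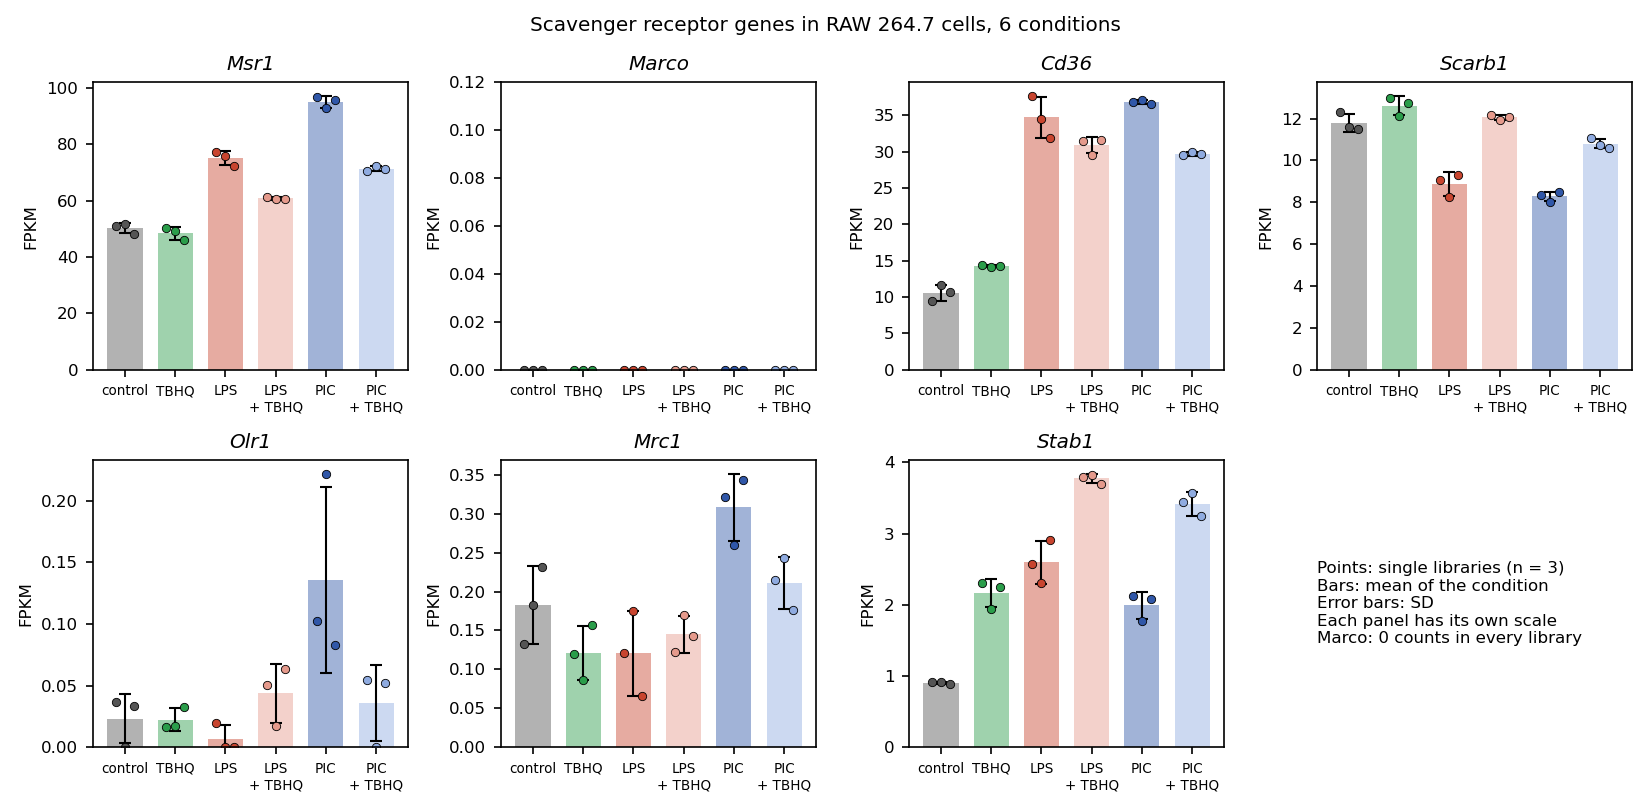
FPKM of the 7 scavenger receptor genes (y axis, a separate scale from 0 for each gene) in the 6 conditions (x axis), with points for single libraries, bars for means and error bars for SD (n = 3). *Msr1* spans means of 48.5 to 95 FPKM, *Stab1* 0.906 to 3.78 FPKM, and *Marco* stays at 0.

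The genes spanned a wide range of levels per unit of length. Averaged over the 18 libraries, *Msr1* was highest at 66.8 FPKM, followed by *Cd36* at 26.2, *Scarb1* at 10.7, *Stab1* at 2.48, *Mrc1* at 0.182, *Olr1* at 0.0445 and *Marco* at 0. In the control *Scarb1*, at a mean of 11.8 FPKM, came before *Cd36* at 10.6. *Marco* was at the floor in 6 of 6 conditions. *Olr1* was at the floor in 4, namely control, TBHQ, LPS and PIC + TBHQ, had 1 library over it in LPS + TBHQ, and was over it in all 3 libraries of PIC only. *Mrc1* had 6 to 37 counts in each library and was over the floor in every condition. *Msr1*, *Cd36*, *Scarb1* and *Stab1* were far above it throughout. With *Mrc1* they made up the 5 genes that passed the filter on low counts and were tested, while *Olr1* and *Marco* were not tested.

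The class A receptors are trimers with a collagen-like stem. *Msr1* encodes the macrophage scavenger receptor SR-A1, which binds acetylated and oxidised low-density lipoprotein and bacterial lipid A. It lies on chromosome 8, at 40034726 to 40095714 on the minus strand in the coordinates of the authors' files. *Msr1* stood at 51.0, 51.8 and 48.2 FPKM in the control libraries and at 50.4, 49.1 and 45.9 FPKM with TBHQ. With LPS the libraries read 77.2, 75.7 and 72.3 FPKM, and with PIC 96.7, 92.7 and 95.5 FPKM. In LPS + TBHQ the values were 61.4, 60.6 and 60.5 FPKM, and in PIC + TBHQ 70.4, 72.3 and 71.3 FPKM. The PIC libraries were the highest, all of the stimulated libraries were above the control, and both sets with TBHQ and a stimulus lay below the sets with the stimulus alone, although the FPKM ranges of PIC + TBHQ and LPS met. Control and TBHQ libraries overlapped.

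*Msr1* rose 1.48-fold with LPS (log2FC 0.57 ± 0.036 SE, FDR 1.06e-15) and 1.87-fold with PIC (log2FC 0.90 ± 0.036, FDR 8.2e-22). The level with PIC exceeded that with LPS by a log2FC of 0.33 (FDR 3.86e-09), or 0.20 when counts were scaled by library totals instead of TMM. TBHQ before the stimulus gave a lower level than the stimulus alone, with a log2FC of -0.31 ± 0.036 for LPS (FDR 2.22e-08) and -0.40 ± 0.036 for PIC (FDR 2.76e-11). *Msr1* nevertheless stayed over the control in both, by a log2FC of 0.26 in LPS + TBHQ and 0.50 in PIC + TBHQ. TBHQ alone gave a log2FC of -0.057 with a 95% interval of -0.131 to 0.017 (FDR 0.264).

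*Marco* encodes another class A receptor of macrophages, which binds whole bacteria and inhaled particles. The gene lies on chromosome 1 at 120402267 to 120432753, and it had 0 counts in each of the 18 libraries, 285464738 counts in all. With a floor of 3 counts, this allows a level of up to 0.0827 to 0.108 FPKM by library totals, depending on the library. The authors' FPKM values were 0.943 to 1.12 times those by library totals, so on their scale the limit differs by that factor. No change of *Marco* with any treatment was detectable at this depth.

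The class B receptors cross the membrane at both ends and carry lipids. *Cd36* encodes a receptor for long-chain fatty acids, oxidised lipoprotein and thrombospondin that works together with Toll-like receptors, and it lies on chromosome 5 at 17986688 to 18093799 on the minus strand. Control libraries held 9.42, 11.6 and 10.7 FPKM of *Cd36*, and those with TBHQ 14.4, 14.2 and 14.3 FPKM. Levels were 37.6, 34.5 and 31.9 FPKM with LPS and 31.4, 29.6 and 31.6 FPKM with LPS + TBHQ. They were 36.9, 37.1 and 36.6 FPKM with PIC and 29.5, 29.99 and 29.6 FPKM with PIC + TBHQ. All 12 stimulated libraries were above all libraries without a stimulus, and the TBHQ libraries were above the control libraries. LPS and PIC libraries overlapped, and the lowest LPS library was close to the highest one of LPS + TBHQ.

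*Cd36* rose 3.26-fold with LPS (log2FC 1.71 ± 0.057, FDR 8.33e-24) and 3.44-fold with PIC (log2FC 1.78 ± 0.057, FDR 8.02e-25). The difference between the stimuli was a log2FC of 0.079 with a 95% interval of -0.025 to 0.182 (FDR 0.279). With TBHQ alone *Cd36* was at 1.35 times the control (log2FC 0.43 ± 0.061, FDR 7.94e-07). With TBHQ before the stimulus, *Cd36* was lower than with PIC alone (log2FC -0.30 ± 0.051, FDR 1.74e-05) and lower than with LPS alone (log2FC -0.17 ± 0.051, FDR 0.0124). The LPS difference rested on single libraries. Without LPS replicate 1 it was -0.11 (FDR 0.159), and without LPS + TBHQ replicate 2 it was -0.14 (FDR 0.0836). It was not called by limma on log2(FPKM + 1) either (FDR 0.0616), while the FDR over the alternatives with all libraries ran from 0.00892 to 0.0691.

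*Scarb1* encodes SR-B1, the receptor for high-density lipoprotein that mediates selective uptake of cholesteryl esters, and lies on chromosome 5 at 125354151 to 125418158 on the minus strand, where it overlaps *Gm42633*, a gene with at most 9 counts in a library. It stood at 12.3, 11.6 and 11.5 FPKM in the control and at 13, 12.1 and 12.7 FPKM with TBHQ. LPS libraries read 9.04, 8.24 and 9.32 FPKM and PIC libraries 8.36, 8.03 and 8.47 FPKM. In LPS + TBHQ the libraries read 12.2, 11.9 and 12.1 FPKM, and in PIC + TBHQ 11.1, 10.8 and 10.6 FPKM. *Scarb1* was thus low in the libraries with a stimulus alone, with no overlap with any other condition. LPS + TBHQ overlapped with the control, and PIC + TBHQ lay between the control and the stimulus alone.

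*Scarb1* was the tested gene that fell with both stimuli, to 0.748 of the control with LPS (log2FC -0.42 ± 0.047, FDR 1.72e-09) and to 0.695 with PIC (log2FC -0.53 ± 0.047, FDR 4.89e-12). TBHQ before the stimulus gave a higher level than LPS alone (log2FC 0.44 ± 0.046, FDR 1.83e-09) and than PIC alone (log2FC 0.39 ± 0.047, FDR 3.01e-08). In LPS + TBHQ the log2FC to the control was 0.023 with a 95% interval of -0.068 to 0.114 (FDR 0.719). In PIC + TBHQ it was -0.13 ± 0.046 (FDR 0.0137), a call that was lost without control replicate 1 (log2FC -0.10, FDR 0.087) or without PIC + TBHQ replicate 3 (log2FC -0.12, FDR 0.0538). Scaled by library totals, the log2FC was -0.28 (FDR 1.78e-06). TBHQ alone gave a log2FC of 0.095 with a 95% interval of 0.004 to 0.186 (FDR 0.115). PIC against LPS gave -0.11 (FDR 0.104), which became a call at -0.15 without LPS replicate 2 (FDR 0.0244) and at -0.23 when counts were scaled by library totals instead of TMM (FDR 0.000178).

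*Olr1* encodes LOX-1, a lectin-like class E receptor for oxidised low-density lipoprotein, and lies on chromosome 6 at 129462207 to 129484128. The control libraries had 2, 0 and 2 counts, and the TBHQ libraries 1, 1 and 2. With LPS there were 1, 0 and 0 counts, and with LPS + TBHQ 3, 1 and 4. With PIC there were 5, 11 and 5 counts, and with PIC + TBHQ 3, 0 and 3. The 3 PIC libraries were higher than all others, but a single library held 11 of their 21 counts. Relative to library totals, the 21 counts of PIC were 4.87 times those of the control, which had 4 counts (95% exact interval 1.64 to 19.5). Against the 6 counts of PIC + TBHQ the ratio was 3.40 (95% exact interval 1.33 to 10.3). These intervals hold counting error only and leave out the variation between replicates.

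*Mrc1* encodes the mannose receptor CD206, an endocytic lectin and a usual marker of alternatively activated macrophages, on chromosome 2 at 14234203 to 14336868. Counts were 13, 19 and 25 in the control, 13, 9 and 17 with TBHQ, and 11, 16 and 6 with LPS. They were 13, 18 and 16 in LPS + TBHQ, 28, 23 and 37 with PIC, and 21, 22 and 18 in PIC + TBHQ. After scaling, the PIC libraries were above those of all other conditions. *Mrc1* was higher with PIC than with LPS (log2FC 1.34 ± 0.35, FDR 0.00355), with 0.22 from limma on log2(FPKM + 1). The excess over the control had an FDR of 0.049 (log2FC 0.73 ± 0.32) and was lost under 15 of 26 other settings, DESeq2 among them (FDR 0.119). Without control replicate 1 its log2FC was 0.55 (FDR 0.186), without control replicate 2 0.73 (FDR 0.0962), without PIC replicate 1 0.72 (FDR 0.0916) and without PIC replicate 3 0.66 (FDR 0.133). Leaving out any of 7 libraries outside these groups gave an FDR of 0.0502 to 0.0527.

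*Stab1* encodes stabilin-1, a large class H receptor for acetylated lipoprotein, the matrix protein SPARC and phosphatidylserine on dying cells. It lies on chromosome 14 at 30860970 to 30890598 on the minus strand. The control libraries were close together at 0.918, 0.913 and 0.886 FPKM, and TBHQ libraries read 2.30, 1.94 and 2.25 FPKM. *Stab1* was at 2.57, 2.31 and 2.91 FPKM with LPS and at 2.12, 1.78 and 2.08 FPKM with PIC. LPS + TBHQ gave 3.80, 3.83 and 3.70 FPKM, and PIC + TBHQ gave 3.44, 3.57 and 3.24 FPKM. The control libraries were the lowest and the libraries with TBHQ and a stimulus the highest, with no overlap between either set and the rest. TBHQ and PIC libraries overlapped with each other.

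*Stab1* rose 2.39-fold with TBHQ alone (log2FC 1.25 ± 0.096, FDR 9.05e-13), 2.85-fold with LPS (log2FC 1.51 ± 0.095, FDR 8.01e-16) and 2.18-fold with PIC (log2FC 1.12 ± 0.098, FDR 2.91e-12). In LPS + TBHQ it reached 4.14 times the control (log2FC 2.05 ± 0.09, FDR 4.2e-20), and in PIC + TBHQ 3.76 times (log2FC 1.91 ± 0.092, FDR 2.67e-19). TBHQ raised it over LPS alone by a log2FC of 0.54 ± 0.079 (FDR 1.78e-06) and over PIC alone by 0.79 ± 0.083 (FDR 1.63e-09). With PIC it was lower than with LPS (log2FC -0.39 ± 0.086, FDR 0.000627). With limma on log2(FPKM + 1), where the added 1 is near the level of the gene, the log2FC values to the control were smaller, 0.73 with TBHQ alone, 0.91 with LPS, 0.65 with PIC, 1.33 in LPS + TBHQ and 1.21 in PIC + TBHQ. *Stab1* shares 112 bases at one end with *Nt5dc2* on the other strand, the libraries are described as strand-specific in the methods and as both directional and non-directional in the sample records, and whether the counting made use of strand is not given. *Nt5dc2* had log2FC values of -0.21 with LPS and -0.57 with PIC, opposite in sign to *Stab1*. It had the sign of *Stab1* with TBHQ alone (0.40), in LPS + TBHQ (0.32) and PIC + TBHQ (0.07, FDR 0.348) against the control, with TBHQ before LPS (0.54) and PIC (0.65) against the stimulus alone, and for PIC against LPS (-0.36). Its part in the *Stab1* counts was not tested.

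**Figure D2:**
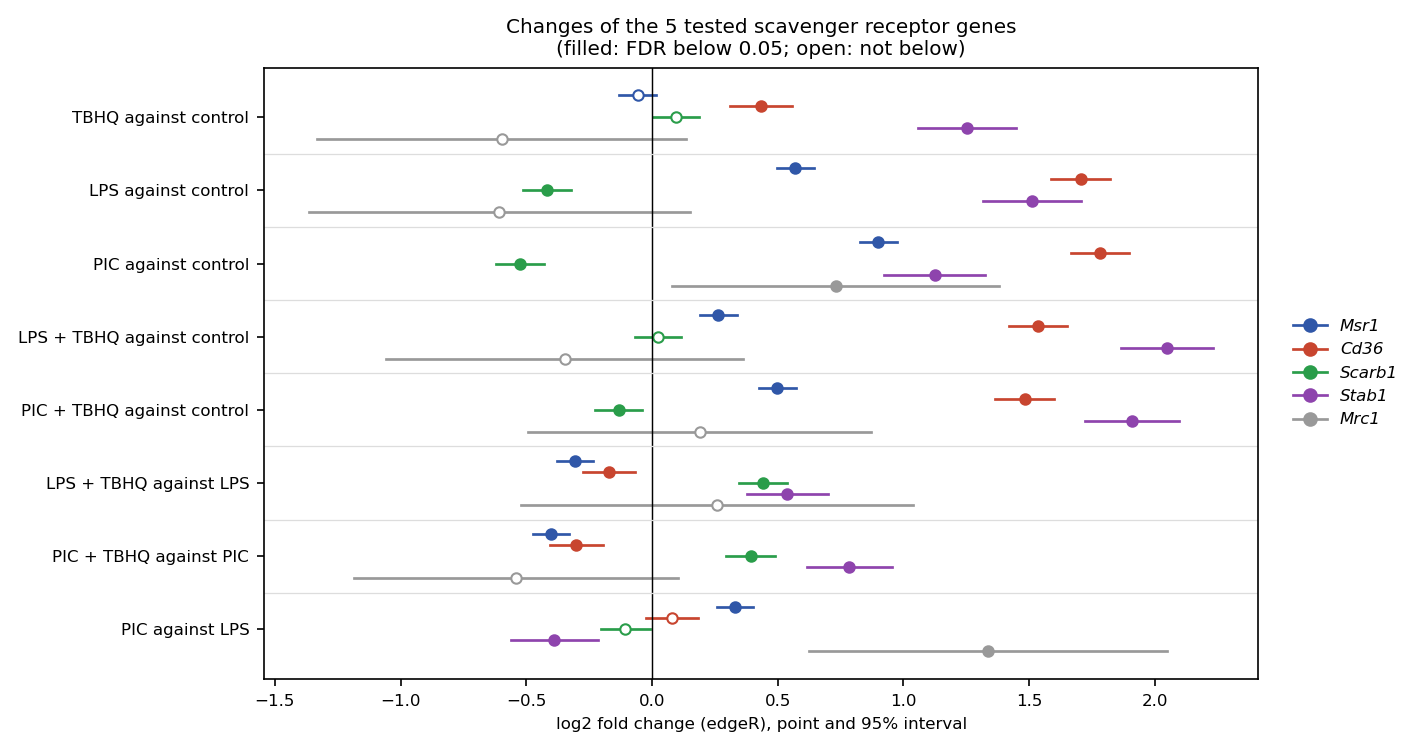
Log2 fold changes from edgeR (x axis) of the 5 tested scavenger receptor genes in 8 comparisons (y axis), as points with 95% intervals, filled where the FDR was below 0.05. *Stab1* lies at 1.12 to 2.05 against the control in 5 comparisons, while *Scarb1* lies at -0.42 with LPS and -0.53 with PIC.

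Counted by comparison at an FDR below 0.05, *Cd36* and *Stab1* were the 2 of 5 tested genes higher with TBHQ alone, where 14.2% of all 13691 genes tested were called higher and 14.8% lower. None of these 5 genes was called lower by edgeR with TBHQ alone, nor at an unadjusted p below 0.05, by DESeq2 or by limma. LPS raised 3 of the 5 (background 24.0%) and lowered 1 (background 24.1%). PIC raised 4 (background 28.6%) and lowered 1 (background 30.1%). Against the control, 3 were higher in LPS + TBHQ (background 21.2%, with 22.5% lower), and in PIC + TBHQ 3 were higher (background 26.4%) and 1 lower (background 26.0%). These 5 comparisons share the control libraries. At the study's own threshold, an FDR below 0.01 and a |log2FC| above 2, 1 gene passed, *Stab1* in LPS + TBHQ, as did 0.84% of all genes in the higher direction.

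TBHQ moved the genes in both directions when it preceded a stimulus. Against LPS alone, *Scarb1* and *Stab1* were higher in LPS + TBHQ, 2 of 5 (background 11.7%), and *Msr1* and *Cd36* lower, also 2 (background 12.2%). Against PIC alone, the calls in PIC + TBHQ were for these genes in the same directions, 2 higher (background 15.8%) and 2 lower (background 15.5%). *Mrc1* had a log2FC of 0.26 ± 0.384 in the first comparison (FDR 0.698), which was -0.034 without LPS replicate 3 and 0.625 without LPS replicate 2, and of -0.54 ± 0.317 in the second (FDR 0.205). The TBHQ change with PIC was compared with that with LPS gene by gene. None of the 5 genes was called in edgeR, DESeq2 or limma (background 0.825% higher and 1.01% lower), and 1 of 5, *Stab1*, had an unadjusted p below 0.05 (difference 0.25 ± 0.115, FDR 0.318). Whether the change with TBHQ alone differed from that under a stimulus was not tested. Between the stimuli, PIC gave higher levels than LPS for *Msr1* and *Mrc1*, 2 of 5 (background 14.9%), and a lower level for *Stab1* (background 12.8%).

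By the median over the 5 tested genes, which went both ways, the log2FC was 0.57 with LPS and 0.90 with PIC, beside -0.00396 and -0.0146 over all genes tested. The latter were -0.0919 and -0.232 with library totals in place of TMM. The median of the 5 was 0.0947 with TBHQ alone, 0.264 in LPS + TBHQ and 0.497 in PIC + TBHQ against control. It was 0.259 for LPS + TBHQ against LPS, -0.301 for PIC + TBHQ against PIC and 0.0786 for PIC against LPS. The 0.259 is the value of the low-count gene *Mrc1* (± 0.384, FDR 0.698), and the -0.301 that of *Cd36*. These 2 medians thus do not show opposite TBHQ changes. *Msr1*, *Cd36*, *Scarb1* and *Stab1* each had the same sign in both comparisons. The order of the 6 conditions differed from gene to gene. For *Msr1* the means rose from TBHQ through control, LPS + TBHQ, PIC + TBHQ and LPS to PIC, with overlapping libraries for the neighbours TBHQ and control and for PIC + TBHQ and LPS. For *Cd36* they rose from control through TBHQ, PIC + TBHQ, LPS + TBHQ and LPS to PIC, and the neighbours PIC + TBHQ and LPS + TBHQ, and LPS and PIC, overlapped. For *Scarb1* they rose from PIC through LPS, PIC + TBHQ, control and LPS + TBHQ to TBHQ, where PIC overlapped with LPS, and LPS + TBHQ with both of its neighbours. For *Stab1* the order was control, PIC, TBHQ, LPS, PIC + TBHQ and LPS + TBHQ, with an overlap of PIC and TBHQ only. For *Mrc1* the order was LPS, TBHQ, LPS + TBHQ, control, PIC + TBHQ and PIC, and of these neighbours only PIC did not overlap with the one below it. For *Olr1* the mean was highest in PIC and lowest in LPS, and of the neighbours in its order only PIC did not overlap with the one below it.

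Over the 18 libraries, log2 CPM of *Msr1* and *Scarb1* had a Pearson r of -0.901, and *Msr1* and *Cd36* one of 0.857. *Cd36* and *Stab1* had an r of 0.722, and *Scarb1* and *Stab1* one of -0.036. These are descriptions over libraries that share 6 treatments. Among 10450 other genes with a mean of at least 50 counts, those most like *Msr1* were *Rap1b* (r 0.991), *Hilpda* (0.99) and *Gramd1a* (0.989). *Hilpda*, a lipid droplet protein gene, had mean levels of 28.5 FPKM in the control, 24.8 FPKM under TBHQ, 83.2 FPKM under LPS, 46.4 FPKM under LPS + TBHQ, 149.0 FPKM under PIC and 72.3 FPKM under PIC + TBHQ. Most like *Cd36* were *Mthfd2* (0.988), *Ripk2* (0.988) and *Asns* (0.986). Most like *Scarb1* were *Txndc5* (0.962), *Stx2* (0.961) and *Cd300a* (0.956). Most like *Stab1* were *G6pdx* (0.957), the first enzyme of the pentose phosphate pathway, *Slc22a4* (0.95) and *Abcc1* (0.95), a glutathione conjugate exporter. *Abcc1* had mean levels of 15.5 FPKM in the control, 32.8 FPKM under TBHQ, 31.9 FPKM under LPS, 44.1 FPKM under LPS + TBHQ, 35.6 FPKM under PIC and 45.9 FPKM under PIC + TBHQ, so that, unlike the means of *Stab1*, its means were higher with PIC than with LPS. With the 6 condition means in place of the libraries, 1 of the 3 genes of *Msr1* was again among the most alike, and 0 of the 3 for each of the other genes.

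Promoter sequences, 250 bases before and 50 after the gene start, were given for 5 of the 7 genes by RefSeq (GRCm38.p6), which is not the coordinate system of the count table. *Msr1* and *Scarb1* were not among them. Motifs were searched on both strands, namely the antioxidant response element core TGACNNNGC, present in 12.4% of 32851 promoters, the AP-1 site TGANTCA (7.81%), the ETS core GAGGAA (28.3%), an NF-kB site GGANTTTCC (1.25%) and an interferon response element GAAANNGAA (8.56%). The letters of the antioxidant, NF-kB and interferon motifs did not occur in the 5 windows, and *Cd36* had no match to any of the 5 motifs. *Stab1* and *Marco* had 1 ETS match each and *Mrc1* had 3. *Olr1* had 1 ETS match and 1 AP-1 site, which reads as a match on both strands. The 250 bases before the start are shown for *Stab1* and *Cd36*, the genes called higher than the control in each of the 5 treatments, and for *Olr1*, which was over the floor in all libraries of PIC only. They lie on the minus strand at chr14:31168642-31168891, chr5:17835897-17836146 and chr6:129507166-129507415, and capitals mark motif matches. A match is a run of letters and not a shown binding site.
Stab1: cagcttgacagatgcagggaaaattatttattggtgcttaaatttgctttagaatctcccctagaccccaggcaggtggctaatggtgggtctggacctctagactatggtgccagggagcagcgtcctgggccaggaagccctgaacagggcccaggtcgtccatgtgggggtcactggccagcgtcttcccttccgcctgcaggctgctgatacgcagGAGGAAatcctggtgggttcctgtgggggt
Cd36: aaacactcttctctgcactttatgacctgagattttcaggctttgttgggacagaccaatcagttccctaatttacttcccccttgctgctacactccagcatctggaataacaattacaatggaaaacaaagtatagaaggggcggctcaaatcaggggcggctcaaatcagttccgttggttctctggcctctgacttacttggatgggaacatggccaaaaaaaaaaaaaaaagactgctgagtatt
Olr1: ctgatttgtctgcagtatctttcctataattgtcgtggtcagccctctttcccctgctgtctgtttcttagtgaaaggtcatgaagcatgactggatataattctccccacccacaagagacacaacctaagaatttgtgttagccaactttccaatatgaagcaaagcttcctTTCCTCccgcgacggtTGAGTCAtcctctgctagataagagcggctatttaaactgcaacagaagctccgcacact

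Other scavenger receptors were read from a list of 21 genes, of which 11 were tested and 6 were at the floor throughout. LPS raised 4 of the 11 and lowered 2 (median log2FC 0.0333), beside 24.0% and 24.1% of all genes tested, and PIC raised 6 and lowered 2 (median 0.0976), beside 28.6% and 30.1%. *Cxcl16*, the scavenger receptor for phosphatidylserine and oxidised lipoprotein, rose with LPS (log2FC 0.57) and PIC (0.88) and was lower with TBHQ before the stimulus (-0.74 and -0.85), as was *Clec7a*, the beta-glucan receptor dectin-1 (-1.15 and -0.61). Of the 11, LPS + TBHQ had 2 higher and 3 lower than LPS (all genes 11.7% and 12.2%). PIC + TBHQ had 1 higher and 3 lower than PIC (all genes 15.8% and 15.5%). *Cd68* was higher in both (0.11 and 0.11). *Colec12*, a further class A receptor, rose with LPS (0.18) and PIC (0.54). *Scarb2*, a lysosomal relative of *Scarb1* and *Cd36*, fell with LPS (-0.40) and PIC (-0.54). With TBHQ alone 1 rose, *Lrp1* (0.30), and 3 fell, *Clec7a* (-0.76), *Scarf1* (-0.43) and *Colec12* (-0.09), beside 14.2% and 14.8% of all genes.

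Of 16 genes of lipoprotein and fatty acid handling, 14 were tested, and *Vldlr* and *Pdzk1* were at the floor. LPS raised 7 and lowered 5 (all genes 24.0% and 24.1%), and PIC raised 8 and lowered 5 (all genes 28.6% and 30.1%), with medians of 0.10 and 0.19. The fatty acid binding protein gene *Fabp4* rose with LPS (log2FC 1.12) and PIC (1.78), while the cholesterol exporter *Abcg1* (-0.81 and -0.89) and *Cpt1a*, which admits fatty acids to mitochondria (-0.96 and -1.09), fell. The lysosomal lipase gene *Lipa* followed the directions of *Scarb1*, with log2FC values of -0.42 for LPS, -0.58 for PIC, 0.51 for LPS + TBHQ against LPS and 0.52 for PIC + TBHQ against PIC. In this it was the exception of its list. Of the 14 genes, LPS + TBHQ had 1 higher and 7 lower than LPS (all genes 11.7% and 12.2%). PIC + TBHQ had 1 higher and 6 lower than PIC (all genes 15.8% and 15.5%). With TBHQ alone 2 were higher and 6 lower (all genes 14.2% and 14.8%).

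Among 13 tested genes of receptor partners and signalling, LPS raised 9 and lowered 2 (all genes 24.0% and 24.1%) and PIC raised 10 and lowered 2 (all genes 28.6% and 30.1%), with medians of 0.23 and 0.37, and *Gulp1* was at the floor. The kinase gene *Syk* led with log2FC values of 0.99 and 1.5. *Tlr2*, a partner of CD36, had log2FC values of -0.16 with LPS, 0.53 with PIC, a value outside the naming rule, and 0.34 with TBHQ alone, and of -0.30 and -0.34 with TBHQ before LPS and PIC. Of 12 tested genes for the clearance of dying cells, LPS lowered 7 and raised 2, and PIC lowered 7 and raised 3, with medians of -0.34 and -0.27, beside the same shares of all genes. The bridging ligand gene *Gas6* fell with LPS (-1.14) and PIC (-1.14) and was higher with TBHQ before them (0.76 and 0.62), and *Timd4* was at the floor. With PIC the lowest log2FC was that of *Itgb5* (-1.38). The opposite directions to *Gas6* were seen for *Cd300lf* and *Itgav*. *Cd300lf* rose with LPS (0.87) and PIC (2.22) and was lower with TBHQ before them (-0.82 and -0.71). *Itgav* rose by 0.56 and 1.40 and was lower by -0.66 and -0.93.

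All 22 known regulators of these genes on the list were tested. With TBHQ alone 9 were higher and 4 lower than in the control (median 0.0826, all genes 14.2% and 14.8%), led by *Tfec* (log2FC 1.03). LPS raised 10 and lowered 6 (median 0.12, all genes 24.0% and 24.1%), and PIC raised 12 and lowered 7 (median 0.16, all genes 28.6% and 30.1%). The nuclear receptor gene *Ppard* rose with LPS (1.39) and PIC (1.82). *Nfe2l2*, the gene of NRF2, was lower than the control in all 5 treatments, from -0.31 with LPS to -0.10 in PIC + TBHQ. Of 15 markers of alternative activation, 4 were tested and 6 were at the floor throughout. Beside these shares of all genes, LPS raised 2 of the 4 and lowered 1 and PIC raised 3 and lowered 1, with medians of 0.93 and 1.78 and with *Il4ra* at log2FC values of 1.98 and 2.51. *Il4ra* was not the highest of the 4. The gene lowered was *Clec10a*, at -1.69 with LPS and -2.66 with PIC and a mean of 11.8 counts. Of 12 treatment response genes, 7 rose and 4 fell with TBHQ alone (median 1.46), led among genes with a mean of at least 50 counts by *Hmox1* (2.09), and 12 rose with LPS (median 2.04) and 11 with PIC (median 2.54), among them *Ptgs2* (4.25 and 5.80), against the same background shares as above.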

How the data were processed

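RNA of the 18 libraries was poly(A)-selected and sequenced as read pairs of 150 bases. The authors aligned reads with HISAT2 2.0.5 and counted them with featureCounts 1.5.0-p3 (StringTie 1.3.3b is also named), and deposited raw counts per gene and FPKM values. Per the labels the build is named as both GRCm38 and mm39, so positions are given as in the authors' files. Counts were tested in R 4.3.3 with edgeR 4.0.16 (filterByExpr, TMM, quasi-likelihood test, 1 fit over 18 libraries, Benjamini-Hochberg adjustment over 13691 genes), with genes called at an FDR below 0.05. SE and 95% intervals are from that fit, and the common dispersion was 0.00192. Log2 CPM used a prior count of 2, and CPM used to compare libraries had no prior count. Both were scaled by TMM, whereas the floor in CPM was scaled by library totals. FPKM values and the gene lengths that the authors listed were used for levels. These FPKM values are not scaled by library totals alone. They were 0.943 times (control replicate 3) to 1.12 times (PIC replicate 2) the values from library totals. The TMM factors of those libraries were 1.07 and 0.911. Alternatives were DESeq2 1.42.0, limma 3.58.1 on log2 FPKM, other scaling, filters and thresholds, a replicate block and each library left out. The tests were tested on simulated data. Genes and lists were chosen with earlier results of these data known. From each list, called genes with the highest and lowest log2FC and a mean of at least 50 counts were eligible to be named, and the results for 2 list genes are not reported here. Of words of 50 bases in the annotated transcripts, 6 of 8530 in *Scarb1* and 5 of 10876 in *Stab1* also occurred in another gene, and 0 in the other 5 genes.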

Additional observations from a re-analysis of the deposited data

How the results depend on the processing

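Of 45 log2FC values, 5 genes in 9 comparisons, 41 kept their side of an FDR of 0.05 under the other tools, scalings, filters and replicate block and with each library left out, and 0 turned from one called direction to the other. The exceptions were *Mrc1* for PIC against control, *Cd36* for LPS + TBHQ against LPS, and *Scarb1* for PIC + TBHQ against control and PIC against LPS; the cause was not tested. With each library left out in turn, the number of genes called was 4 to 5 for PIC against control, 3 to 4 for PIC + TBHQ against control, LPS + TBHQ against LPS and PIC against LPS, and as reported in the other comparisons. At the study's threshold the number fell to 0 in 7 of the 8 comparisons with calls and to 1.0 in LPS + TBHQ against control. An FDR below 0.01 alone removed 1 call each in PIC against control, PIC + TBHQ against control and LPS + TBHQ against LPS and left the other 5 comparisons as they were, so the remaining losses came with the |log2FC| above 2. Over all genes the study's threshold called 26 in place of 3973 for TBHQ and 224 in place of 6589 for LPS against control. Against control it called 489 in place of 8037 for PIC and 132 in place of 5983 for LPS + TBHQ. For PIC + TBHQ against control it called 295 in place of 7178. It called 53 in place of 3274 for LPS + TBHQ against LPS (2178 at an FDR below 0.01 alone). It called 41 in place of 4285 for PIC + TBHQ against PIC and 42 in place of 3787 for PIC against LPS. For the difference between the TBHQ changes, 251 genes became 0 at that threshold, 115 at an FDR below 0.01, 380 unfiltered, 147 with limma on log2(FPKM + 0.1) and 160 without LPS + TBHQ replicate 2. Scaling by library totals moved the median log2FC of all genes to -0.0919 with LPS and -0.232 with PIC, and the genes called higher and lower from 3283 and 3306 to 2454 and 4558 with LPS and from 3917 and 4120 to 2379 and 6635 with PIC. The share called higher went from 48.4% to 36.1% in LPS + TBHQ and from 50.4% to 30% in PIC + TBHQ against the control, from 48.9% to 59.5% and from 50.6% to 70.3% with TBHQ against LPS and PIC alone, from 53.7% to 18.4% for PIC against LPS, and from 45% to 76.1% for the difference. All called values of the 5 genes kept their sign. Pairing of replicates by number was not settled: 45 correlations of their deviations ran from -0.072 to 0.142, 2 of them over 0.1, while 11 of 18 libraries were closest to their own number. With a replicate block, 4 of 5 genes were called for PIC against control, *Mrc1* being lost (FDR 0.0548), and no other call of these genes changed. With a floor of 10 counts *Olr1* was at the floor in 5 conditions instead of 4. The order of conditions was the same with FPKM recomputed from TMM library sizes, which lie close to the scale of the authors' FPKM, so that little could change. With library totals, PIC against LPS turned from 0.079 to -0.051 for *Cd36*. LPS + TBHQ against control turned from 0.023 to -0.04 for *Scarb1*. Neither was called, but these neighbours changed places. Unfiltered, *Olr1* was called in PIC against control (FDR 0.047, but 0.0676 in DESeq2) and PIC against LPS (FDR 0.0109, with none given by DESeq2). The call against LPS rested on 21 counts against 1. Counts of 0 to 37 limit what can be said of *Olr1* and *Mrc1*.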
